A study of Chlorocebus aethiops with 10 samples.

Results

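The genes described here are the globins and the enzymes of heme synthesis in monkey liver. They were chosen by name: of 10 symbols in the rule, 9 were measured (HBB, HBD, HBA1, HBA2, AHSP, ALAS1, ALAS2, ALAD and FECH), out of 16583 genes in all. The gamma globin HBG1 had no feature named for it alone and was not analysed here. Each of the 9 genes was read by 1 array feature. The samples were liver biopsies of 10 adult female African green monkeys (Chlorocebus aethiops), moderately obese and all kept on a high-fat diet (12 weeks per the labels), with 1 one-colour array per animal. The 5 treated animals had received antimiR-33a/b, an LNA antisense oligonucleotide against miR-33a and miR-33b, microRNAs of lipid metabolism. It was given under the skin, with a first dose of 20 mg/kg and a weekly maintenance dose of 5 mg/kg. The 5 control animals had received vehicle, a 0.9% NaCl solution. Liver was sampled on day 57, at 8 weeks of treatment, and the labels name no sorting of cells. Animals are numbered 1 to 5 within each group, and a number links no animal to one of the other group.

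Hemoglobin is a tetramer of alpha-type and beta-type globin chains, each of which holds a heme. Heme is made in a chain of enzymatic steps that starts and ends in the mitochondrion: an aminolevulinate synthase (ALAS1 in most tissues, ALAS2 in developing red cells) makes the first precursor, ALAD joins molecules of it in the cytosol, and FECH inserts iron at the end. The liver makes heme mainly for cytochromes P450, and does so through ALAS1. Globin messages are made in developing red cells and persist in young circulating red cells, and a liver biopsy holds blood. In bulk tissue, fewer cells of a type and less RNA per cell cannot be told apart.

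The deposited values lie around 0 for each feature, as centring per feature leaves them, and are read here as log2; no label states the centring or the base. A value therefore ranks animals within a gene and says nothing of the level of a gene against another gene. For the same reason the liver label could not be checked by the level of hepatocyte markers. The alpha globin genes HBA1 and HBA2 encode the same protein, and HBB and HBD are close relatives. Probe sequences were not analysed here. Signals within each of these pairs may share transcripts and are uncertain in that respect.

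The adult globins were the genes with the widest spread among animals in the set. HBB, the adult beta chain, had values of -1.85, 0.049, -1.54, 0.18 and 0.20 in vehicle animals 1 to 5, and of 0.58, 1.60, 0.014, -0.014 and 1.11 in treated animals 1 to 5. Vehicle animals 1 and 3 lay far below all other animals, and treated animals 2 and 5 lay above all others. The remaining 3 vehicle animals lay slightly above treated animals 3 and 4. From the lowest to the highest animal HBB spanned 3.45 log2 units, a 10.9-fold range. The mean was -0.59 ± 1.01 (SD, n = 5) in vehicle and 0.66 ± 0.70 (SD, n = 5) in treated animals, a difference of 1.25 (SE 0.43, 95% confidence interval 0.32 to 2.17), or 2.38-fold. This was the largest positive difference among the 16583 genes, yet it missed the threshold of 0.05 on the limma adjusted p (adjusted p = 0.0551), and the exact permutation test (two-sided, over animals) gave p = 0.0794. Group medians, on which the lowest animals weigh less, differed by 0.53.

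HBD, the delta chain of the minor adult hemoglobin, gave -1.18, 0.16, -1.27, 0.34 and -0.063 in vehicle animals 1 to 5, and 0.55, 1.44, 0.036, 0.036 and 1.01 in treated animals 1 to 5. The same vehicle animals, 1 and 3, were low and the same treated animals, 2 and 5, were high as for HBB. The group means of -0.40 ± 0.76 and 0.62 ± 0.62 (SD, n = 5 each) differed by 1.02 (SE 0.34, limma adjusted p = 0.0515; exact permutation p = 0.0635), the third largest positive difference of all genes.

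HBA1, an alpha chain gene, gave -1.18, 0.46, -1.15, 0.68 and 0.56 in vehicle animals 1 to 5. In treated animals 1 to 5 it gave 0.76, 1.93, -0.013, -0.019 and 1.31. As for HBB, treated animals 3 and 4 lay below vehicle animals 2, 4 and 5, but here by wider margins. HBA1 differed by 0.92 (SE 0.44, limma adjusted p = 0.155; exact permutation p = 0.143). HBA2, the other alpha chain gene, differed by 0.91 (SE 0.42, limma adjusted p = 0.143; exact permutation p = 0.143), and its values ran from -1.12 in vehicle animal 1 to 1.88 in treated animal 2. Medians differed by 0.30 for HBA1 and by 0.40 for HBA2, so their mean differences rested largely on the lowest and the highest animals.

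**Figure D1:**
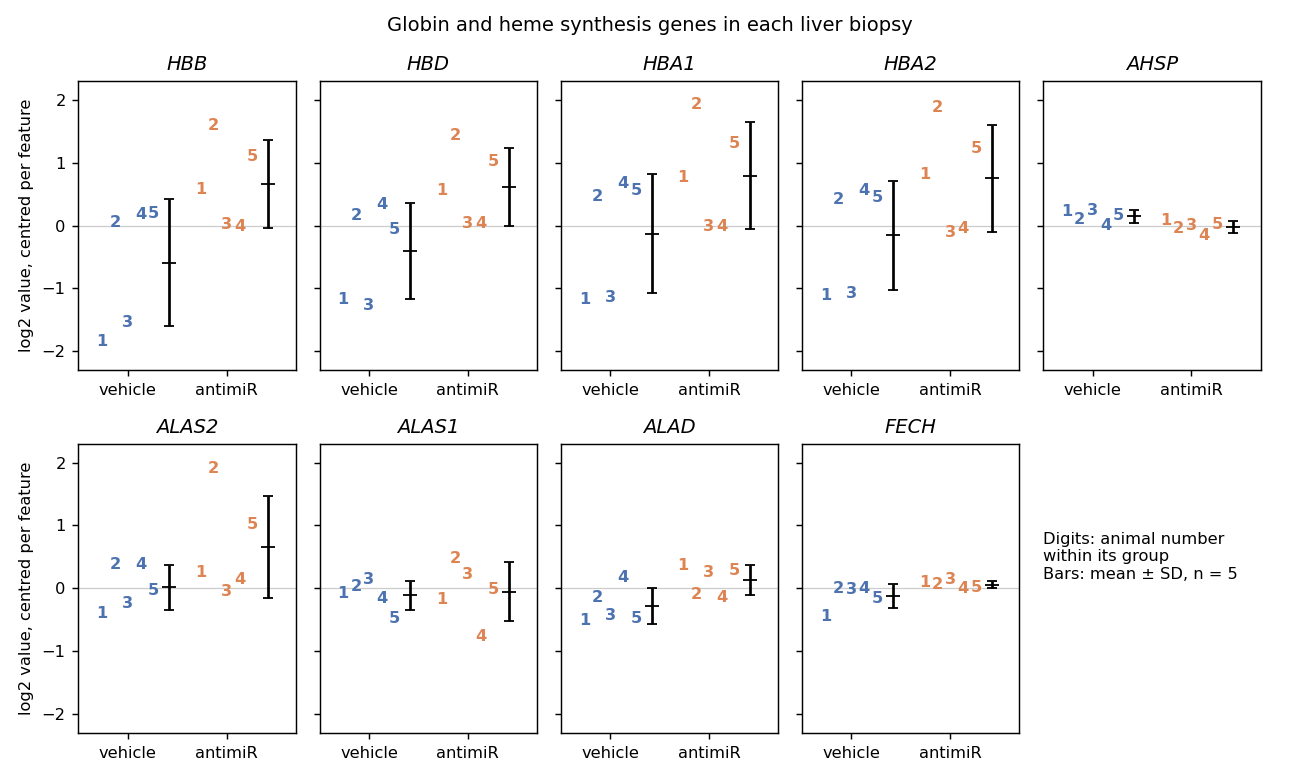
Centred log2 value (vertical axis) of each gene in the 5 vehicle and the 5 antimiR-33a/b animals; digits are animal numbers within a group and bars give the mean ± SD (n = 5). Vehicle animals 1 and 3 are lowest and treated animals 2 and 5 highest for the 4 globins, while AHSP and FECH vary far less than these globins.

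The spread of the globins was among the widest on the arrays. Ranked by the SD within groups, HBA1 stood 6th of 16583 genes (0.90), HBB 8th (0.87), HBA2 12th (0.86) and HBD 25th (0.69), against a median of 0.12 over all genes. ALAS2 stood 36th (0.63) and ALAS1 270th (0.37). FECH stood 4927th (0.14), above the median, and AHSP 12400th (0.093), below it.

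The order of the animals was shared by the globins. HBB correlated across the 10 animals with HBA1 (Pearson r = 0.98, permutation p = 1e-05, the smallest the permutations can give; Spearman rho = 0.99, p = 2e-05) and with HBD (r = 0.99, p = 3e-05; rho = 0.85, p = 0.0028). For HBA2 the values were r = 0.98 (p = 1e-05) and rho = 0.98 (p = 5e-05). Without vehicle animals 1 and 3, the animals farthest from the HBB median, r was 0.96, 0.97 and 0.96 over 8 animals for HBA1, HBD and HBA2. With each group's mean removed it was 0.99, 0.98 and 0.98, so the relation did not rest on the difference between groups. Over the 14 relations computed, the Benjamini-Hochberg adjusted p for these 3 was at most 0.00014 for r and at most 0.0123 for rho, and these relations were chosen with earlier results known.

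ALAS2, the aminolevulinate synthase of developing red cells, followed the globins. It gave -0.40, 0.38, -0.25, 0.38 and -0.042 in vehicle animals 1 to 5, and 0.25, 1.90, -0.050, 0.14 and 1.02 in treated animals 1 to 5. Treated animals 2 and 5 again lay above all others, and vehicle animals 1 and 3 were the lowest. Its correlation with HBB was r = 0.84 over 10 animals (permutation p = 0.00317, adjusted p = 0.0074; rho = 0.83, p = 0.0046), 0.93 over 8 animals without vehicle animals 1 and 3, and 0.78 with group means removed. The groups differed by 0.64 (SE 0.31, 95% confidence interval -0.031 to 1.31, limma adjusted p = 0.158; exact permutation p = 0.159). Without treated animal 2 the difference was 0.32, below the vehicle SD of 0.36, and it was 1.12 when the family contrast defined for ALAD was a covariate (adjusted p = 0.166).

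AHSP, the chaperone that binds free alpha globin in developing red cells, varied little and ordered the animals otherwise. It gave 0.23, 0.10, 0.24, 0.0013 and 0.17 in vehicle animals 1 to 5, and 0.085, -0.048, -0.0013, -0.15 and 0.014 in treated animals 1 to 5. The groups overlapped, and the whole range was 0.39 log2 units, against 3.45 for HBB. The difference was -0.17 (SE 0.065, limma adjusted p = 0.0852; exact permutation p = 0.0238). Its correlation with HBB was negative over 10 animals (r = -0.66, permutation p = 0.0392, adjusted p = 0.0686; rho = -0.37, p = 0.297) and rested on vehicle animals 1 and 3, without which r was -0.12.

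**Figure D2:**
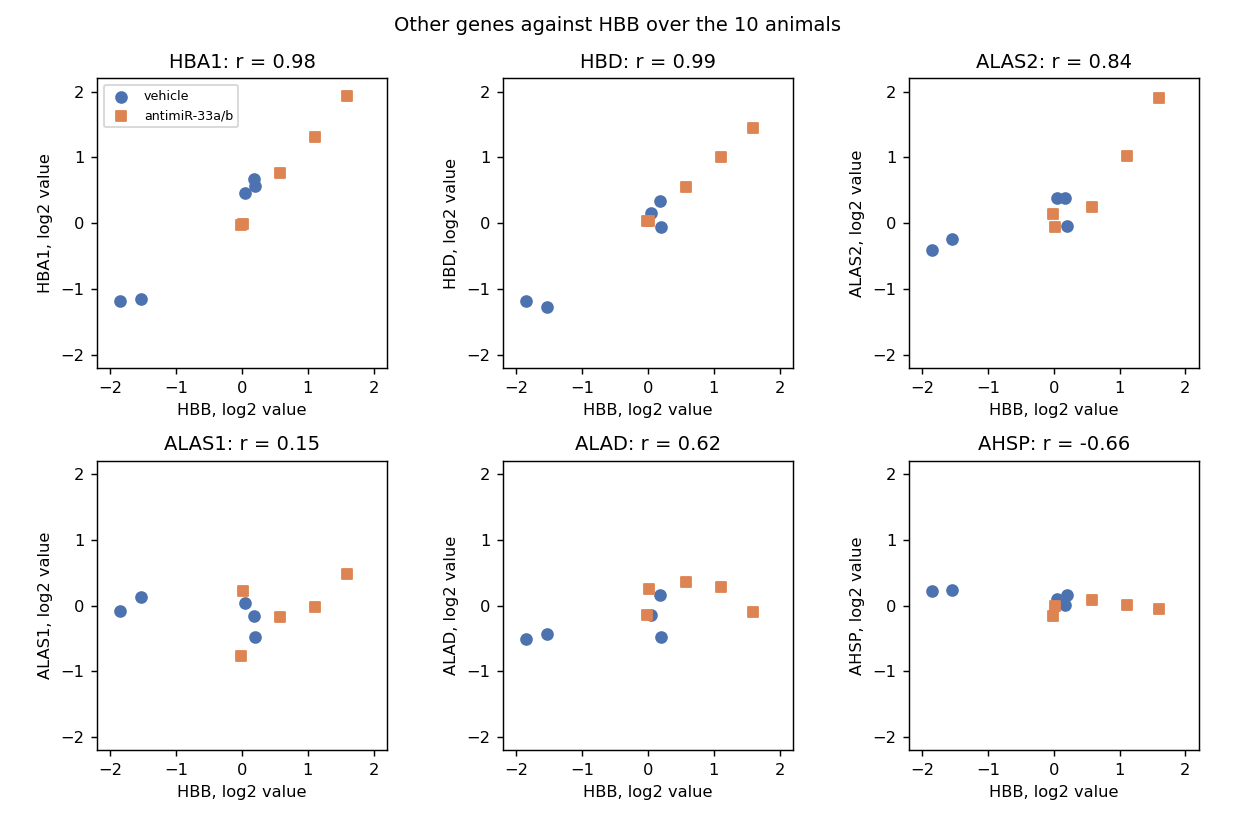
Centred log2 values of HBA1, HBD, ALAS2, ALAS1, ALAD and AHSP (vertical axes) against HBB (horizontal axes), with a point per animal; circles are vehicle and squares antimiR-33a/b animals. HBA1 and HBD rise with HBB (r = 0.98 and 0.99), ALAS2 follows with r = 0.84, and ALAS1 shows r = 0.15.

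ALAS1, the synthase that sets the rate of heme synthesis in liver, did not separate the groups. Its values were -0.085, 0.034, 0.13, -0.17 and -0.47 in vehicle animals 1 to 5, and -0.18, 0.47, 0.22, -0.76 and -0.018 in treated animals 1 to 5. The highest and the lowest animal, numbers 2 and 4, were both treated, and the treated SD of 0.47 was above the vehicle SD of 0.23. The difference was 0.057 (SE 0.19, 95% confidence interval -0.34 to 0.46, limma adjusted p = 0.854; exact permutation p = 0.825), so a change of up to 1.37-fold upward lay within the interval. ALAS1 showed no correlation with HBB that passed the test (r = 0.15, permutation p = 0.679; rho = 0.10, p = 0.785; r = 0.58 without vehicle animals 1 and 3).

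ALAD, the enzyme of the second step, was the 1 gene of the 9 that passed the test. It gave -0.51, -0.14, -0.44, 0.16 and -0.48 in vehicle animals 1 to 5, and 0.36, -0.097, 0.25, -0.14 and 0.29 in treated animals 1 to 5. Treated animals 1, 3 and 5 lay above all vehicle animals, and vehicle animal 4 lay above treated animals 2 and 4. ALAD rose by 0.41 (SE 0.14, 95% confidence interval 0.12 to 0.71), or 1.33-fold, with a limma adjusted p of 0.0487 and an exact permutation p of 0.0397. The call was close to the threshold: it was lost in 7 of the 10 fits that left out 1 animal, with adjusted p up to 0.117 (without vehicle animal 1). It was also lost after quantile normalization (0.31, adjusted p = 0.138) and after a shift of all arrays to the same median (0.41, adjusted p = 0.0796).

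ALAD moved with a measure of the whole array. For each animal the median of 350 genes of 9 housekeeping families minus the median of 513 genes of 5 families that liver does not normally express was taken as a family contrast. It was -0.29, -0.16, -0.26, -0.024 and -0.30 in vehicle animals 1 to 5, and 0.23, -0.090, 0.20, 0.031 and -0.0030 in treated animals 1 to 5. Only vehicle animal 4 lay above a treated animal (number 2), so the contrast itself nearly separated the groups. ALAD correlated with this contrast (r = 0.91, permutation p = 0.0006, adjusted p = 0.0021; rho = 0.84, p = 0.00352), with r = 0.91 without treated animals 1 and 5 and 0.83 with group means removed. With the contrast as a covariate ALAD differed by -0.072 (SE 0.14, limma adjusted p = 0.761). In that fit 397 genes passed, against 3399 without the covariate, and the SE of HBB was 0.73 against 0.43. A call lost with the covariate therefore cannot tell the treatment from the contrast. For HBB the relation with the contrast did not pass the test (r = 0.49 over 10 animals, permutation p = 0.159; rho = 0.26, p = 0.471; r = -0.00067 with group means removed), and its difference with the covariate was 1.25 (limma adjusted p = 0.280).

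FECH, the ferrochelatase, gave -0.45, 0.0037, -0.013, 0.0033 and -0.17 in vehicle animals 1 to 5. In treated animals 1 to 5 it gave 0.085, 0.055, 0.14, -0.0043 and 0.016. Of the treated animals 4 lay above the highest vehicle animal, but by small margins, and vehicle animal 1 was well below the rest. The difference was 0.18 (SE 0.085, limma adjusted p = 0.142; exact permutation p = 0.0238), and 0.10 without vehicle animal 1. When the family contrast was a covariate, it was 0.020 (adjusted p = 0.929). The correlation with HBB did not pass for FECH (r = 0.63, permutation p = 0.0543) or for ALAD (r = 0.62, permutation p = 0.0535). With each group's mean removed, r was 0.42 for FECH and 0.36 for ALAD.

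Read as a set, 1 of the 9 genes rose, 0 fell and 8 did not pass in limma, while 20.5% of all genes were called, 13.7% higher and 6.8% lower in treated animals, so the count was near the background. At an unadjusted p under 0.05 there were 4 (HBB, HBD, ALAD and AHSP), against 35.6% of all genes, and by the exact permutation test 3 (ALAD, FECH and AHSP), against 32.9% of all genes. The difference was positive for 8 of 9, against 59.2% of all genes, with a median of 0.64 against 0.039 over all genes. In 0 of the 9 were the groups without overlap, against 13.3% of all genes (8.79% with treated animals higher and 4.52% lower).

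**Figure D3:**
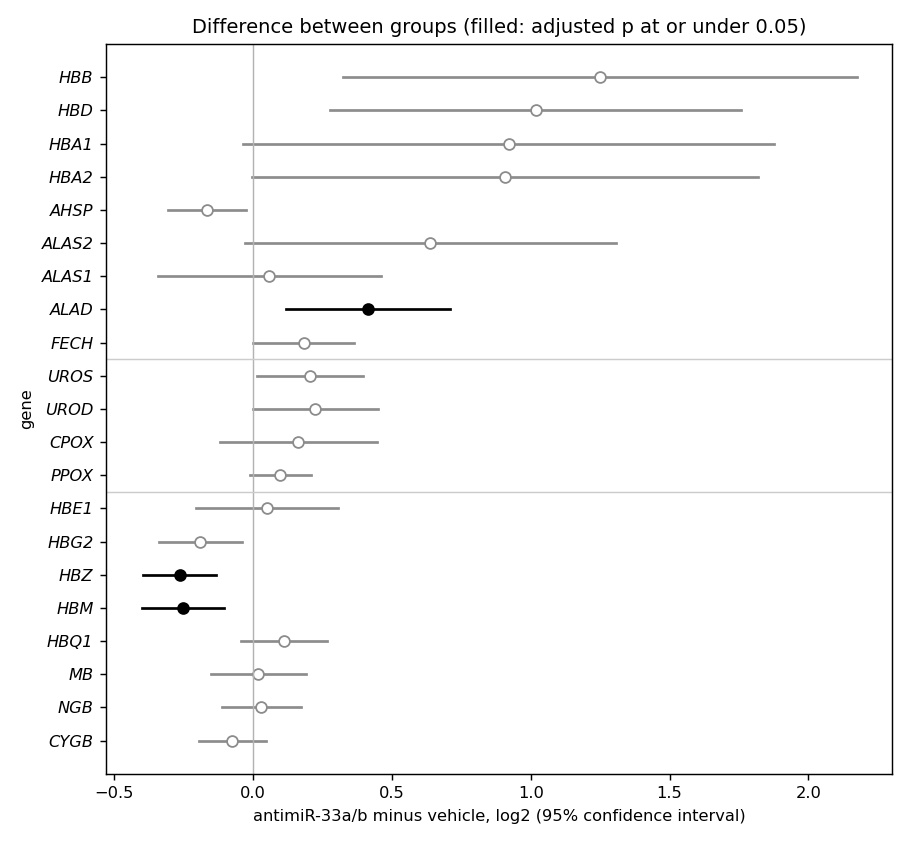
Difference antimiR-33a/b minus vehicle (horizontal axis, log2 units, with 95% confidence intervals) for the 9 genes, the other 4 measured heme synthesis enzymes and 8 other globins; filled points have a limma adjusted p at or under 0.05. HBB has the largest difference (1.25) and a wide interval, ALAD is filled at 0.41, and HBZ and HBM are filled below 0.

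Of the 4 other measured heme synthesis enzymes (UROS, UROD, CPOX and PPOX), which act between ALAD and FECH, 0 passed in limma, against 20.5% of all genes. An unadjusted p under 0.05 was reached by 1, UROS, against 35.6% of all genes. All 4 differences were positive, with a median of 0.18. UROS, which closes the porphyrin ring, differed by 0.20 (adjusted p = 0.117), UROD by 0.22 (adjusted p = 0.144) and PPOX by 0.097 (adjusted p = 0.186). All treated values of PPOX lay above all its vehicle values. CPOX, named after its values were seen, differed by 0.16 (adjusted p = 0.396). Given the family contrast as a covariate, UROD turned to -0.14 and CPOX to -0.18. UROD and CPOX followed ALAD across animals (r = 0.86, permutation p = 0.00076, adjusted p = 0.00213, rho = 0.82; and r = 0.80, permutation p = 0.00755, adjusted p = 0.0151, rho = 0.81). Without treated animals 1 and 5, r was 0.82 for UROD and 0.62 for CPOX. With each group's mean removed, r with ALAD was 0.79 for UROD and 0.81 for CPOX, against 0.15 for UROS and 0.12 for PPOX. The relation with ALAD did not pass for UROS (r = 0.48, permutation p = 0.161; rho = 0.47, p = 0.178) or PPOX (r = 0.59, permutation p = 0.0747; rho = 0.54, p = 0.116). These pairs were chosen after the values had been seen.

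Genes that supply the pathway were counted next, against the 20.5% of all genes that were called. Of 9 measured genes of precursor transport and cofactor supply, 5 rose, 0 fell and 4 did not pass, with a median difference of 0.20. SLC25A38, the mitochondrial carrier that brings in glycine for the first step, rose by 0.45 (SE 0.11, limma adjusted p = 0.0151). TMEM14C, which moves a porphyrin precursor into the mitochondrion, rose by 0.38 (SE 0.082, adjusted p = 0.0090). ABCB10 (0.28, adjusted p = 0.0268), a mitochondrial transporter needed for heme synthesis in red cells, and the iron importer SLC25A28 (0.20, adjusted p = 0.0184) also rose. In these 4 genes all treated animals lay above all vehicle animals. The same held for ABCB6, named after its values were seen, which did not pass (0.18, adjusted p = 0.0910). That made 5 of the 9, against 8.79% of all genes. GLRX5, of iron-sulphur cluster assembly, rose by 0.27 (adjusted p = 0.0475). Its call was lost when any of 7 single animals was left out (adjusted p up to 0.114), under quantile normalization, with arrays shifted to a common median and with array weights. The ABCB10 call was lost when any of 4 single animals was left out (adjusted p up to 0.0692). When the family contrast was added as a covariate, 0 of the 5 genes that rose passed in limma, with differences from 0.052 for GLRX5 to 0.30 for SLC25A38.

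Of 8 other measured globins, 0 rose and 2 fell, against 13.7% and 6.8% of all genes. The embryonic alpha-type chain HBZ fell by 0.26 (SE 0.061, limma adjusted p = 0.0114). No treated animal reached the vehicle range, but treated animal 2 (0.011) lay only just below vehicle animal 4 (0.013). HBM, an alpha-type globin of the same cluster, fell by 0.25 (SE 0.069, adjusted p = 0.0230), a call lost when any of 4 single animals was left out (adjusted p up to 0.0591). HBG2, a fetal gamma chain, differed by -0.19 (adjusted p = 0.0672), and its groups did not overlap either. Such a separation with treated animals lower was thus seen in 2 of the 8, against 4.52% of all genes. Vehicle animals 1 and 3, the low animals for the adult globins, had HBZ values of 0.21 and 0.18, within the range of the vehicle group. With the family contrast as a covariate HBZ differed by -0.12 (adjusted p = 0.296) and HBM by -0.089 (adjusted p = 0.522).

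Counts in the next lists stand beside 13.7% of all genes called higher and 6.8% called lower. In heme breakdown and export 1 of 8 measured genes rose and 0 fell: the transporter FLVCR2 rose by 0.34 (SE 0.063, limma adjusted p = 0.0046). BLVRB, a biliverdin reductase, differed by 0.20 (adjusted p = 0.324) and HMOX2, the constitutive heme oxygenase, by 0.11 (adjusted p = 0.373). Of 7 genes of plasma hemoglobin and heme scavenging, AMBP, the precursor of the heme-binding protein alpha-1-microglobulin, rose by 0.30 (adjusted p = 0.0104) and A1BG, a plasma glycoprotein on the list that is not a known heme scavenger, fell by 0.38 (adjusted p = 0.0410). The A1BG call was lost when any of 7 single animals was left out (adjusted p up to 0.0932), and HPR, the haptoglobin-related protein, differed by 0.18 (adjusted p = 0.0716). Among 7 measured regulators of ALAS1 and of heme-responsive genes, BACH1, a heme-binding repressor, rose by 0.45 (SE 0.084, adjusted p = 0.0048), with all treated values above all vehicle values. FOXO1 (0.28, adjusted p = 0.0812) and NRF1 (-0.16, adjusted p = 0.167) did not pass. With the family contrast as a covariate FLVCR2 differed by 0.33 (adjusted p = 0.0666), AMBP by 0.30 (adjusted p = 0.103), BACH1 by 0.35 (adjusted p = 0.113) and A1BG by 0.036 (adjusted p = 0.871). BLVRB (-0.26), HMOX2 (-0.13) and NRF1 (0.096) then turned their sign.

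Markers of red cells were read beside the globins. Of 16 measured red cell membrane and enzyme genes, 2 rose (12.5%, against 13.7% of all genes) and 0 fell. The ammonia channel subunit RHAG rose by 0.32 (SE 0.079, limma adjusted p = 0.0146) and BPGM, which makes bisphosphoglycerate in red cells, rose by 0.28 (SE 0.089, adjusted p = 0.0410). The BPGM call was lost when any of 8 single animals was left out (adjusted p up to 0.0848) and under quantile normalization, while RHD differed by -0.18 (adjusted p = 0.0831). The median over the list ran from -0.13 to 0.099 in vehicle animals and from 0.011 to 0.17 in treated animals. Treated animal 2, the highest for HBB, HBA1, HBA2, HBD, ALAS2 and ALAS1, was also the highest animal for 7 of the 16 red cell markers (43.8%), against 9.72% of all genes. They included TRIM58 (0.36) and TMOD1 (0.30), both named after their values were seen. Treated animal 5, also high for the adult globins, was the highest for 1 of the 16 (6.25%), against 7.41% of all genes. Vehicle animal 1 was the lowest for 2 of the 16 (12.5%), against 16.0% of all genes. Vehicle animal 3, also low for the adult globins, was the lowest for 0 of the 16, against 3.7% of all genes. The glycophorins and the alpha spectrin gene on the list were not analysed here.

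Of 11 erythroid transcription and signalling genes 1 rose (9.09%, against 13.7% of all genes) and 0 fell. The transferrin receptor TFRC rose by 0.29 (adjusted p = 0.0202), with vehicle animal 4 at 0.017 and the other 4 vehicle animals lower, and missed the threshold without vehicle animal 1 (adjusted p = 0.0523) and under quantile normalization. LMO2 (0.21, adjusted p = 0.0640) and the erythropoietin receptor gene EPOR (-0.17, adjusted p = 0.0650) did not pass. Treated animal 2 was the highest animal for 0 of these 11 genes and treated animal 5 for 4 of them (36.4%, against 7.41% of all genes).

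**Figure D4:**
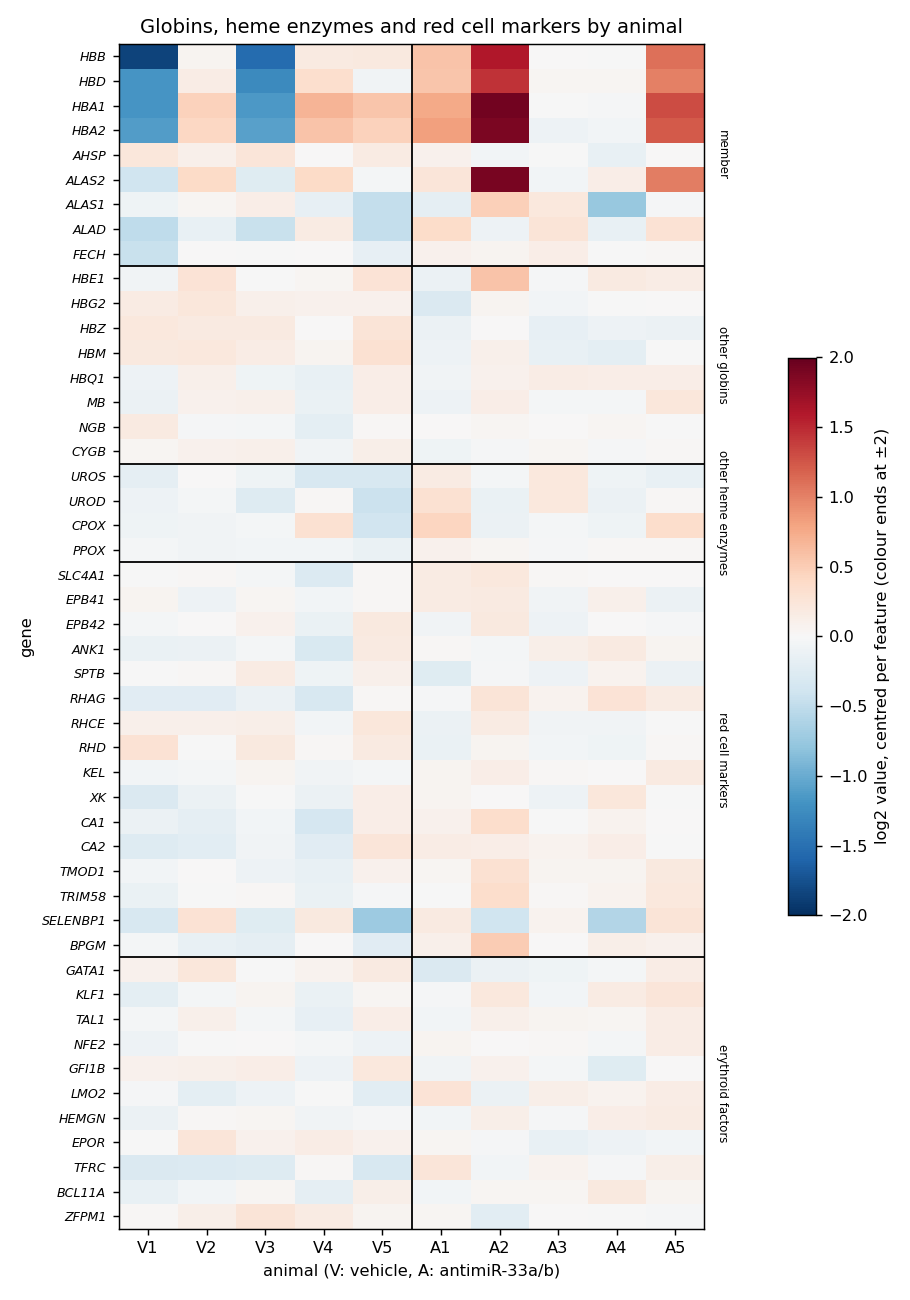
Centred log2 values (colour, from -2 in blue to 2 in red) of the 9 genes, other globins, other heme synthesis enzymes, red cell markers and erythroid factors (rows) in each animal (columns, V for vehicle and A for antimiR-33a/b). The strong colours are those of the 4 adult globins, low in V1 and V3 and high in A2 and A5, and of ALAS2 in A2 and A5. The red cell markers are mostly pale.

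Markers of other blood cells and of hepatocytes were read in the same way, beside the 13.7% of all genes called higher and the 6.8% called lower. Of 12 neutrophil and granulocyte markers 0 rose and 2 fell: CAMP by 0.37 (limma adjusted p = 0.0048) and CXCR1 by 0.32 (adjusted p = 0.0471, lost when any of 8 single animals was left out, adjusted p up to 0.107). S100A8 differed by 0.22 (adjusted p = 0.122). Of 8 platelet markers 0 rose and 3 fell, GP9 by 0.43 (adjusted p = 0.0058), GP1BA by 0.36 (adjusted p = 0.0053) and GP1BB by 0.33 (adjusted p = 0.0102). Of 10 hepatocyte markers 5 rose and 0 fell, among them ALB by 0.44 (adjusted p = 0.0072) and TF by 0.31 (adjusted p = 0.0129), with AMBP as above. AHSG (0.27, adjusted p = 0.0262) and TTR (0.26, adjusted p = 0.0294) were the others, with calls lost when any of 5 and 6 single animals was left out (adjusted p up to 0.0712 and 0.0745). Vehicle animal 1 was the lowest animal for 8 of the 10 hepatocyte markers (80.0%), against 16.0% of all genes. Treated animal 2 was the highest for 3 of the 12 neutrophil and granulocyte markers (25.0%) and 2 of the 8 platelet markers (25.0%). It was also the highest for 2 of the 10 hepatocyte markers (20.0%), against 9.72% of all genes. Its high values were thus not limited to red cell markers. Of the called red cell, erythroid, neutrophil, platelet and hepatocyte markers, RHAG alone stayed past the limma threshold when the family contrast was added as a covariate (0.55, adjusted p = 0.0411). The red cell marker CA1, named after its values were seen, was not called without the covariate (limma adjusted p = 0.106). It passed with it (0.48, adjusted p = 0.0474). Some of the lost calls had differences as large as before: ALB at 0.52 (adjusted p = 0.0649), TF at 0.37 (0.0761), AHSG at 0.35 (0.0908), AMBP at 0.30 (0.103) and BPGM at 0.39 (0.105). The others were smaller with the covariate. They were GP9 at -0.14, GP1BA at -0.23, GP1BB at -0.14, CAMP at -0.22, CXCR1 at -0.044, TFRC at 0.063 and TTR at 0.10. The part of any of these cell types in the globin differences was not tested.

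Outside the set, the genes whose pattern was most like HBB over the 10 arrays, with each group's mean removed, were IGSF6 (r = 0.88), ZBTB7A (0.87), OR2T4 (0.87), HDAC5 (0.87), GRHPR (0.87), PCDHGB4 (0.84), OR2T29 (0.84), OR2T5 (0.84), FEM1A (0.83) and CAPG (0.83). HBA1, HBA2 and HBD held the first 3 places of 16582 genes and ALAS2 the 19th, while AHSP came 15185th (r = -0.39). The genes most like ALAS1 were KDM1A (0.92), SLC25A28 (0.91), C1S (0.88), IFITM1 (0.87) and PRORP (0.85), and HBB came 4194th in that order. These values describe 10 arrays and carry no test.

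**Figure D5:**
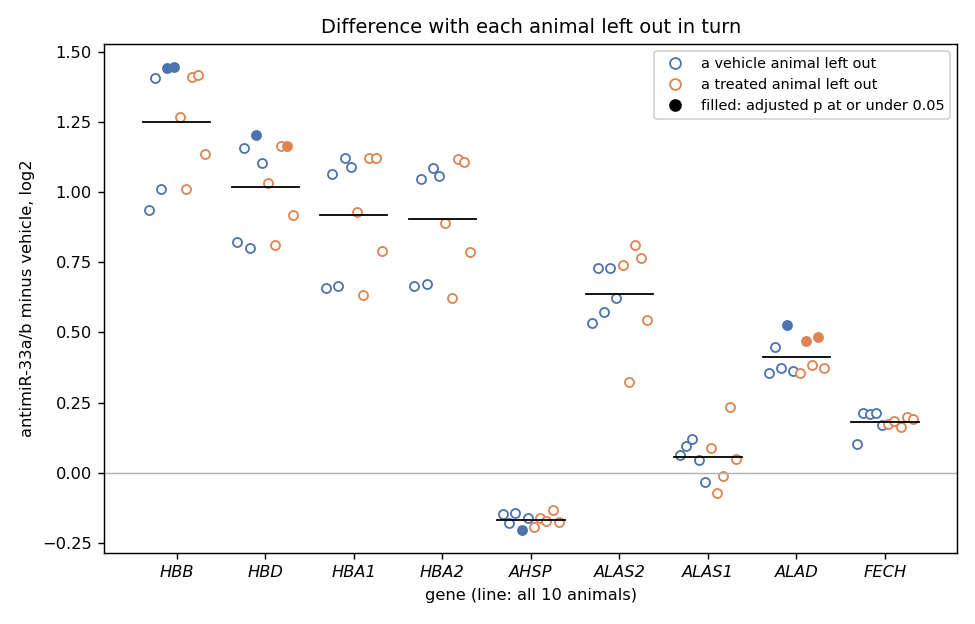
Difference antimiR-33a/b minus vehicle (vertical axis, log2 units) for each gene with 1 animal left out (points, blue for a vehicle and orange for a treated animal) and with all 10 animals (line); filled points have a limma adjusted p at or under 0.05. HBB stays between 0.93 and 1.45 and is filled in 2 fits, HBA1 and HBA2 in 0, and ALAD in 3.

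Leaving out animals in turn kept the globin differences positive. HBB ranged from 0.93 without vehicle animal 1 to 1.45 without vehicle animal 5, and passed the threshold in 2 of 10 fits (limma adjusted p from 0.0339 without vehicle animal 4 to 0.127). HBD ranged from 0.80 to 1.20 and passed in 2 fits (adjusted p from 0.0247 to 0.124). HBA1 (0.63 to 1.12) and HBA2 (0.62 to 1.12) passed in 0 fits in limma, with adjusted p no lower than 0.0918 and 0.0895.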

How the data were processed

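Expression was measured in liver biopsies of 10 animals, 5 per group, each animal being a biological replicate. Per the labels' protocols, double-stranded cDNA from 1 µg of total RNA was labelled with Cy3. The deposited values are log2 values as used here, and lie around 0 for each feature, which is how centring per feature would leave them. The sources used here do not state the normalization, any centring or the log base. They ran from -2.26 to 2.94 over 45033 features. Signal over background is unknown, and precision is limited by the number of arrays. A table of the platform's annotation gave 1 human gene symbol for 18188 features. The other 26845 features did not carry exactly 1 symbol and gave no gene value. The mean over a gene's features gave 16583 genes.

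The group difference (treated minus vehicle) of every gene was estimated in limma 3.58.1 (lmFit and eBayes; R 4.3.3), and calls were made at a Benjamini-Hochberg adjusted p of 0.05 across the 16583 genes. The fit was tested on simulated data. Single genes were also tested over the 252 assignments of animals, where the smallest two-sided p is 0.0079. Correlations used 100000 permutations (scipy 1.17.1). The members and lists (11 other lists, with 99 of 111 genes measured) were chosen with earlier results of these data known. Named were all members, the genes of each list past the threshold with the 3 of smallest p, and the 10 and 5 genes most like HBB and ALAS1.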

Additional observations from a re-analysis of the deposited data

Results flagged for a closer look

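Among 45 named genes, examined in each group of 5 animals, 5 values stood apart from the rest of their group by Dixon's criterion; 90 groups were examined, and chance alone marks about 1 group in 20. None belonged to the 9 globin and heme synthesis genes. BPGM in treated animal 2 stood at 0.50, above the other treated animals, and that animal also had the highest values of the adult globins and ALAS2. TFRC in vehicle animal 4 stood at 0.017, above the other vehicle animals. Among treated animals, the hepatocyte genes ALB (-0.10) and AMBP (-0.023) were lowest in animal 1, and among vehicle animals TF (-0.40) was lowest in animal 1.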

How the results depend on the processing

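In limma 3399 of 16583 genes passed. The count was 0 with the exact permutation test, which gave 5454 genes an unadjusted p under 0.05 (limma gave 5904), 397 with the family contrast as a covariate, and 1925 to 4117 when 1 animal was left out. Of the 9 globin and heme synthesis genes 1 passed, 4 with array weights, and 0 after quantile normalization, a shift to one common array median, the exact permutation test or the covariate, with 4, 4, 3 and 1 at an unadjusted p under 0.05; leaving out 1 animal gave 0 to 4. The count without vehicle animal 4 was 4. ALAD reversed to -0.072 with the covariate. ALAS1 reversed to -0.025 with array weights and ranged from -0.074 to 0.23 when 1 animal was left out. Array weights took HBB (1.48, adjusted p = 0.0244), HBD (1.20, 0.0242) and AHSP (-0.20, 0.0282) past the threshold. Other settings moved HBB and HBD away from it. With the trend and robust settings of limma the adjusted p was 0.13 for HBB and 0.0955 for HBD. After quantile normalization it was 0.0645 for HBB and 0.0637 for HBD. Apart from ALAD and ALAS1, the differences of the other 7 of the 9 genes kept their sign under the settings run. The cause was not tested. No paired analysis was possible because the labels give no numbers shared between groups. With 10 arrays and no stated background, an interval as wide as that of HBA1 (-0.037 to 1.88) leaves its size unresolved.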
